A study of Saccharomyces cerevisiae with 7 samples.

Results

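Ribosome biogenesis factors are the proteins that make, modify, fold and trim ribosomal RNA and assemble it with ribosomal proteins, without staying in the finished ribosome. The 35 genes described here were listed by systematic name for this role. They are 6 proteins of the small nucleolar ribonucleoproteins (snoRNPs), 7 factors of the small subunit pathway, 18 of the large subunit pathway and 4 that serve both pathways or have further roles. The table of the series lists 6141 open reading frames, of which 5585 have a value at all 7 times, and all 35 genes have a row. A full set of 7 values exists for 31 of them. NOP14 lacks only its value at 6 h, UTP20 has a value at 6 h only, and the rows of NOP4 and NOG1 are empty.

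The samples are Saccharomyces cerevisiae cells of the spo11-Y135F mutant, taken 1, 2, 3, 4, 5, 6 and 8 h into meiosis, with 1 array per time. Spo11 makes the DNA double-strand breaks that start meiotic recombination, and the exchanged tyrosine is its catalytic residue. No unmutated strain was analysed here, so every comparison is between times within the mutant, and all groups share the allele. Every title names the mutant, but 2 of the 7 descriptions, those of 1 and 2 h, leave it out. Each value is the log2 of a gene's share of the mRNA at a time, measured against a mixture of mRNA from all times and divided by the same ratio at 0 h. A log2 ratio of 1 is thus 2-fold above 0 h and a log2 ratio of -1 is 2-fold below it. The labels and design text mention 2 independent cultures, but a time has 1 column, so a level at one time has no replicate error and is a description. Where 7 values are listed for a gene, they are its log2 ratios in the order of these times. In RNA from a whole culture, a smaller number of cells expressing a gene and less of its mRNA per cell cannot be told apart.

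In growing yeast, ribosome assembly starts in the nucleolus on one long precursor RNA made by RNA polymerase I. SnoRNPs place methyl groups and pseudouridines at sites chosen by their guide RNAs. A large complex that contains the UTP proteins folds the small subunit part, RNA helicases and GTPases drive the large subunit part through its steps, and the genes for these factors are known in growing cells to respond together to nutrients. Diploid yeast enters meiosis when starved of nitrogen and fermentable carbon, conditions in which growing cells lower the expression of these genes.

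Column medians over all genes lay between -0.15 at 6 h and 0.03 at 1 h, and the 6 h column had the widest spread, with a standard deviation of 1.49 against 0.84 to 1.36 in the others. The 6 h column also has a different set of empty rows, and whether it was divided by the same 0 h measurement as the others is not known from the sources used here. Each of the meiotic genes checked against the labels was more than 2-fold above 0 h at some of the times. Not all were so throughout: DIT1 was at -0.38 at 3 h and IME1 at 0.23 at 8 h. NDT80, the transcription factor of the middle meiotic genes, went from 1.74 to 5.17 between 3 and 4 h, and DIT1, which acts late in making the spore wall, from 0.55 to 8.52 between 5 and 8 h.

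Ribosome biogenesis transcripts as a group were below 0 h through the first 5 h, with lows at 1 and 5 h, and above it at 8 h. The medians over the 31 genes were -0.61, -0.42, -0.09, -0.50, -0.81, -0.08 and 0.67 in time order. The median at 6 h was 0.0683 after each column was centred on its median and 0.0071 after quantile normalization, so its sign is not fixed, while at the other 6 times the sign was the same under both. The lower of the 2 lows was that at 5 h as deposited and that at 1 h after quantile normalization, with medians of -0.73 at 1 h and -0.64 at 5 h. The course held a return towards 0 h at 3 h, a second low at 5 h and a higher level at 8 h. At 5 h 25 of the 31 genes lay below 0 h, against 53.2% of all genes, and at 8 h 26 of the 31 lay above it, against 46.8%. These times, 5 and 8 h, were chosen after seeing the data. The count below 0 h was also 25 of the 31 at 1 h and at 2 h, against 2676 and 2777 of all 5585 genes. At least 2-fold below 0 h were 12 of the 31 at 5 h, against 17.4% of all genes, and none at 8 h, against 10.8%. At least 2-fold above 0 h was 1 gene at 5 h, against 16.3% of all genes, and 10 at 8 h, against 12.3%. The time of the highest value was 8 h for 19 of the 31, against 15.0% of all genes, and the time of the lowest value was 5 h for 12, against 15.5%. A count of 8 of the 31 stayed within 2-fold of 0 h at all 7 times, against 34.3% of all genes.

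**Figure D1:**
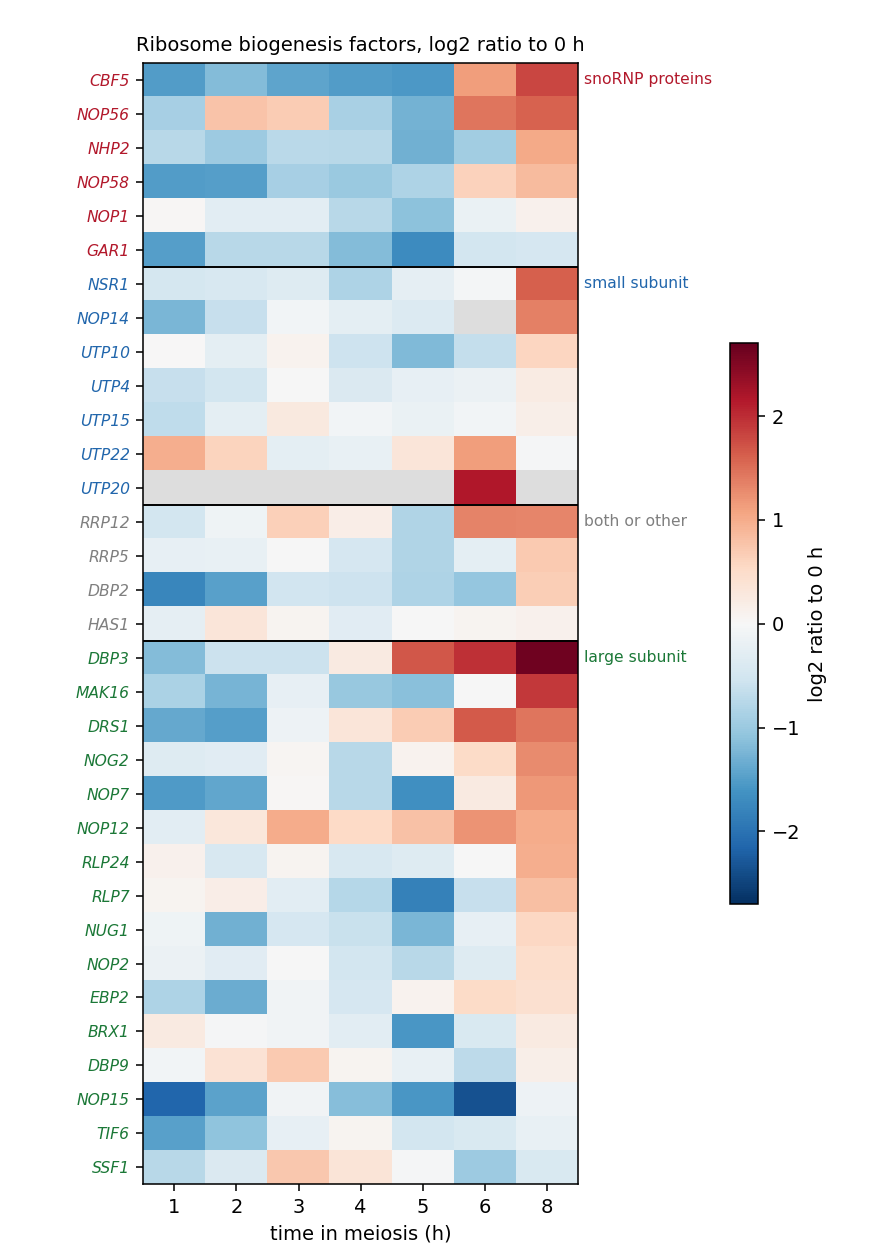
Log2 ratio to 0 h (colour, scale from -2.7 to 2.7) of the 33 ribosome biogenesis genes with any value at 1, 2, 3, 4, 5, 6 and 8 h, by class and, within a class, by the value at 8 h. Grey cells have no value; most rows are blue at 5 h and red at 8 h, and DBP3 has the highest value, 2.62.

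The proteins of box C/D snoRNPs, which guide methylation of ribosomal RNA, shared a high point at 8 h but took different paths to it. NOP58 (YOR310C), a core scaffold protein, had log2 ratios of -1.51, -1.49, -0.90, -1.01, -0.84, 0.63 and 0.86. Its 5 values up to 5 h were thus all below 0 h and its last 2 above it, and in the test of the slope it rose by 0.37 ± 0.08 log2 per hour (SE, limma adjusted p = 0.0496). That call was lost without any 1 of the arrays from 1 to 6 h, with a limma adjusted p between 0.0707 and 0.195. NOP56 (YLR197W), its partner and sequence relative in the same particle, had log2 ratios of -0.89, 0.77, 0.69, -0.88, -1.28, 1.45 and 1.60. NOP56 crossed 0 h 3 times and was farthest of the snoRNP genes from their median course, and its slope did not pass (0.24 ± 0.15 log2 per hour, limma adjusted p = 0.382). The value of NOP56 lay 2.25 above that of NOP58 at 2 h and 0.44 below it at 5 h, so these rows did not run in step. Each of these differences rests on 1 array per time and was not tested. NOP1 (YDL014W), the methyltransferase, moved least, with log2 ratios of 0.03, -0.28, -0.28, -0.75, -1.10, -0.19 and 0.12. SNU13, the protein that binds the box C/D RNA first and is related to Nhp2, was not among the 35 genes. It was close to or above 0 h throughout, with log2 ratios of -0.18, 0.58, 0.15, 0.32, 0.49, 2.03 and 1.17. SNU13 also acts in the spliceosome.

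Box H/ACA snoRNPs, which guide the conversion of uridine to pseudouridine, were low up to 5 h and left that level at different times. CBF5 (YLR175W), the pseudouridine synthase, had log2 ratios of -1.51, -1.18, -1.43, -1.51, -1.55, 1.12 and 1.81. All 5 values up to 5 h lay within 0.37 of each other and the step of 2.67 from 5 to 6 h was followed by a higher value at 8 h. The slope of CBF5, 0.48 ± 0.12 log2 per hour, was as steep as that of DRS1 below but did not pass (limma adjusted p = 0.0667), and a line describes such a step poorly. NHP2 (YDL208W), an RNA-binding subunit, had log2 ratios of -0.75, -0.98, -0.73, -0.76, -1.30, -0.94 and 1.03. NHP2 was still low at 6 h, when CBF5 was already above 0 h. GAR1 (YHR089C), a subunit with glycine- and arginine-rich ends, had log2 ratios of -1.48, -0.75, -0.75, -1.17, -1.70, -0.50 and -0.46. It was below 0 h at every time and the lowest snoRNP gene at 5 h. The median of all 6 snoRNP genes was -1.29 at 5 h and 0.95 at 8 h, and all 6 were highest at 8 h, 5 of them lowest at 5 h.

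**Figure D2:**
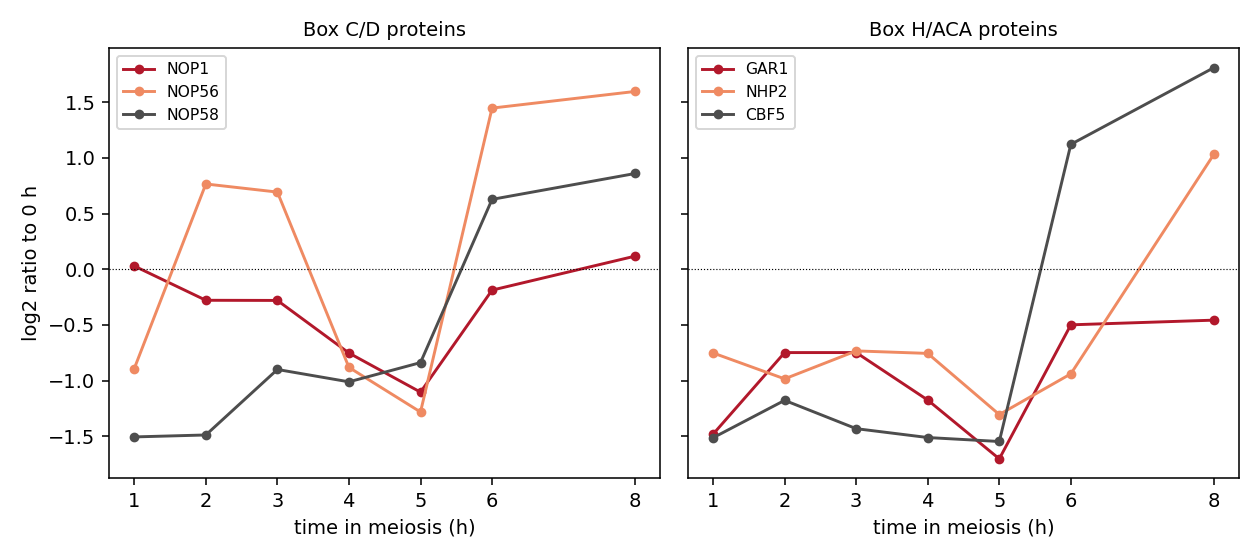
Log2 ratio to 0 h (vertical axis) of the box C/D genes NOP1, NOP56 and NOP58 and the box H/ACA genes GAR1, NHP2 and CBF5 against time in meiosis in hours, 1 array per point. All 6 are highest at 8 h; NOP56 is above 0 h at 2 and 3 h, and CBF5 steps from -1.55 at 5 h to 1.12 at 6 h while NHP2 stays at -0.94.

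The median of the small subunit factors lay closer to 0 h than that of the snoRNP genes at every time. It was taken over the 5 genes with all values, without NOP14 and UTP20, and lay between -0.48 at 1 h and 0.23 at 8 h. UTP4 (YDR324C), UTP10 (YJL109C) and UTP15 (YMR093W) belong to the subcomplex that joins the precursor RNA first. UTP4 had log2 ratios of -0.61, -0.50, -0.01, -0.39, -0.21, -0.15 and 0.23. UTP15 had log2 ratios of -0.69, -0.25, 0.26, -0.06, -0.18, -0.08 and 0.15. These 2 genes stayed within 2-fold of 0 h and ran close together, whereas UTP10 was low at 5 h. UTP10 had log2 ratios of 0.02, -0.25, 0.10, -0.55, -1.20, -0.65 and 0.58. UTP22 (YGR090W), of another subcomplex, ran against the class: it had log2 ratios of 0.98, 0.59, -0.26, -0.20, 0.32, 1.13 and -0.03. It was thus the highest of the 31 genes at 1 h and was lower at 8 h than at 1 h, which held for 2 of the 31.

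At 8 h NSR1 and NOP14 exceeded the 0 h level by more than 2-fold, which UTP4, UTP10, UTP15 and UTP22 did not. NSR1 (YGR159C), a nucleolin-like RNA-binding protein, had log2 ratios of -0.48, -0.42, -0.35, -0.83, -0.23, -0.06 and 1.61. Its slope, which did not pass, rests on the 8 h array: it was 0.25 log2 per hour with all arrays (limma adjusted p = 0.130) and 0.06 without 8 h. NOP14 (YDL148C), a scaffold of the early small subunit particle, had log2 ratios of -1.23, -0.63, -0.07, -0.27 and -0.37 from 1 to 5 h and of 1.37 at 8 h. Over these 6 times, in a fit of the 5635 rows that have them, its slope was 0.32 ± 0.07 log2 per hour (limma adjusted p = 0.0802). UTP20 (YBL004W), a large protein needed for maturation of the small subunit RNA, has 1 value, 2.16 at 6 h, on the array with the widest spread.

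Of the 4 factors that serve both subunits or have further roles, RRP5 and RRP12 were lowest at 5 h. RRP5 (YMR229C), needed for cuts that release the RNAs of both subunits, stayed between -0.81 at 5 h and 0.71 at 8 h. RRP12 (YPL012W), which acts in the export of both subunits, had log2 ratios of -0.50, -0.11, 0.65, 0.17, -0.81, 1.34 and 1.33. It was above 0 h at 3 and 4 h, below it at 5 h and above it again at 6 and 8 h. DBP2 (YNL112W), an RNA helicase that also acts on mRNA, had log2 ratios of -1.76, -1.47, -0.53, -0.56, -0.83, -1.05 and 0.67. Only its 8 h value was above 0 h. HAS1 (YMR290C), a helicase that releases snoRNAs from the precursor, stayed between -0.30 and 0.32 and had the smallest range of the 31 genes, 0.62.

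Helicases of the large subunit pathway included the gene with the steepest slope of the 31 and another that passed the slope test. DBP3 (YGL078C), an RNA helicase needed for efficient trimming of the precursor, had log2 ratios of -1.18, -0.59, -0.58, 0.25, 1.67, 1.96 and 2.62. Its value at 8 h was 6.15-fold above 0 h and the highest of the 31 genes. DBP3 did not share the low at 5 h: from 3 to 5 h it was 2.25 higher, while 24 of the 31 genes were lower, against 55.9% of all genes. It was also the gene farthest from its class median course. DRS1 (YLL008W), a helicase of early large subunit particles, had log2 ratios of -1.37, -1.48, -0.14, 0.33, 0.69, 1.65 and 1.44. Both were below 0 h from 1 to 3 h and above it from 4 h on, and both rose in the slope test, DBP3 by 0.60 ± 0.07 and DRS1 by 0.48 ± 0.08 log2 per hour (SE, limma adjusted p = 0.0265 and 0.0477). The call of DRS1 was lost without any 1 of the arrays from 1 to 6 h and that of DBP3 without the array at 1, 2 or 6 h. DBP9 (YLR276C), another helicase of the pathway, did not have this course: its highest value was 0.71, at 3 h, and its lowest -0.71, at 6 h. The genes next to DBP3 in the reference order, KXD1 and HNM1, were at 0.40 and 0.01 at 8 h. Those next to DRS1, LMO1 and COX17, were at -0.78 and -0.98. None of these 4 neighbours passed the slope test (limma adjusted p from 0.255 to 0.887).

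Of the 16 measured large subunit factors, NOP7, NOP2, BRX1 and RLP7 were lowest at 5 h. MAK16 (YAL025C), a protein of early large subunit particles, was low at 5 h too (-1.12) and reached 1.91 at 8 h. NOP7 (YGR103W), a core protein of one processing complex, had log2 ratios of -1.54, -1.41, 0.02, -0.74, -1.66, 0.25 and 1.18, with both lows and both returns. RLP7 (YNL002C), a relative of a ribosomal protein that occupies the nascent particle, started at 0.07, had its lowest value, -1.83, at 5 h, and ended at 0.81. BRX1 (YOL077C), of an early particle, was at -1.57 at 5 h and 0.24 at both 1 and 8 h. RLP7 and BRX1 were thus low in the middle of the time course and near 0 h at 1 h.

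NOP2 (YNL061W), a methyltransferase of the large subunit RNA, had a shallower form of this course with -0.74 at 5 h and 0.47 at 8 h. NUG1 (YER006W) and NOG2 (YNR053C) are GTPases of nuclear large subunit particles. NUG1 had 2 lows, -1.30 at 2 h and -1.23 at 5 h, and was at 0.57 at 8 h, while NOG2 was at 0.09 at 5 h and 1.27 at 8 h. RLP24 (YLR009W), the placeholder for a ribosomal protein that is exchanged in the cytoplasm, stayed between -0.43 at 2 h and 0.99 at 8 h. NUG1, NOG2 and RLP24 were highest at 8 h, as were 8 of the 16 large subunit factors in all.

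Other large subunit factors departed from the class. NOP15 (YNL110C), an RNA-binding protein, had log2 ratios of -2.14, -1.45, -0.09, -1.14, -1.58, -2.36 and -0.13. It was below 0 h at every time, as GAR1 was, and had the lowest value of the 31 genes. NOP12 (YOL041C), which helps fold the large subunit RNA, was instead above 0 h from 2 h on, with 1.00 at 3 h, 1.20 at 6 h and 1.00 at 8 h. EBP2 (YKL172W), an early factor, was at -1.35 at 2 h and 0.43 at 8 h, with 0.10 at 5 h. TIF6 (YPR016C), which keeps the large subunit from joining the small one, was at -1.46 at 1 h and between -0.49 and 0.08 from 3 h on.

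SSF1 (YHR066W), an early assembly factor, had log2 ratios of -0.74, -0.39, 0.74, 0.36, -0.03, -0.99 and -0.41. It has a near-identical copy, SSF2, with 0.02, 0.11, 0.80, 0.36, -0.04, 0.28 and 0.08. The 2 rows were closest from 3 to 5 h and farthest apart at 6 h. The sources used here do not say whether the probes tell them apart, so the values of both are uncertain. RLP7 and RLP24 were far from their ribosomal protein relatives at 1 h. At 6 h they were closer to all of these except RPL7B, and at 8 h closer to all. At 1 h RPL7A and RPL7B were at -2.53 and -1.16 and RLP7 at 0.07, and RPL24A and RPL24B were at -2.44 and -2.40 and RLP24 at 0.12. At 6 h RPL7A and RPL7B were at -0.74 and 1.15 and RLP7 at -0.62. RPL24A and RPL24B were then at 0.68 and 0.21 and RLP24 at -0.02. At 8 h RPL7A and RPL7B were at -0.37 and 0.04 and RLP7 at 0.81. RPL24A and RPL24B were then at 0.17 and -0.52 and RLP24 at 0.99.

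Over the time course as a whole, 3 of the 31 genes rose (DBP3, DRS1 and NOP58) and none fell in the limma test of a line in hours, at an adjusted p under 0.05 over all 5585 genes. The share of all genes that rose by this test was 1.34%, and the share that fell was 0.716%. At an unadjusted p under 0.05, 12 of the 31 had a slope above 0 and none a slope below it, against 11.0% and 12.0% of all genes. The slope was above 0 in 27 of the 31 genes, against 2475 of all 5585 genes. Its median was 0.13 log2 per hour over the 31 genes, against -0.02 over all genes. The calls depended on single arrays. Without 1, 2 or 6 h none of the 31 passed, with an adjusted p for DBP3 of 0.110, 0.185 and 0.0658; without 3, 4 or 5 h only DBP3 passed, and without 8 h the same 3 genes passed. Over these fits the slope of DBP3 stayed between 0.58 and 0.67 log2 per hour, that of DRS1 between 0.43 and 0.63 and that of NOP58 between 0.33 and 0.41. After quantile normalization 7 genes rose, adding CBF5, DBP2, MAK16 and NOP7 to the 3. This test takes its error from the scatter around the line alone, and samples of one course depend on each other, so its p-values serve to rank genes.

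**Figure D3:**
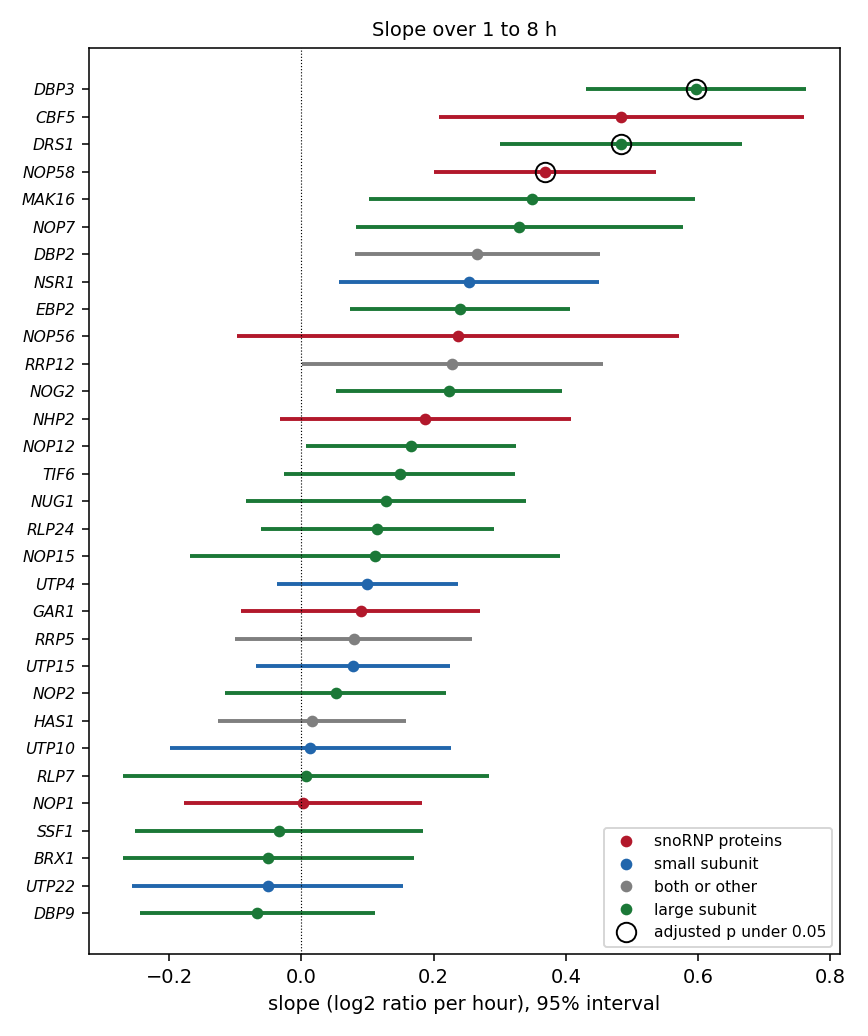
Slope over 1 to 8 h in log2 ratio per hour (horizontal axis) with its 95% interval from limma for the 31 genes with 7 values, coloured by class. Open circles mark DBP3, DRS1 and NOP58, with an adjusted p under 0.05. Of the 31 slopes 27 lie above 0, against 2475 of all 5585 genes, which are not drawn.

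A curved course was tested by a quadratic term in time. None of the 31 genes passed (limma, smallest adjusted p = 0.186, for RLP7), against 0.43% of all genes with upward curvature and 0.143% with downward curvature. At an unadjusted p under 0.05, 7 of the 31 curved upward, that is low in the middle, and none downward, against 8.24% and 7.50% of all genes. They were RLP7, NSR1, MAK16, NHP2, UTP10, RLP24 and CBF5. This test also counts a late step such as that of CBF5 and has 4 residual degrees of freedom.

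The change between 5 and 8 h was found in all classes and is free of the 0 h measurement if it was the same for both columns. Both times were chosen after seeing the data, as those of the lowest and highest median of the 31 genes as deposited. The shares of all genes given beside the counts had no such choice of times. The median of the differences was 1.34 over the 31 genes and -0.07 over all genes. At 8 h 29 of the 31 were higher than at 5 h, against 46.5% of all genes; the exceptions were SSF1 and UTP22, at -0.39 and -0.35. At least 2-fold higher were 20 of the 31, against 13.0% of all genes, and none was at least 2-fold lower, against 12.3%. CBF5 had the largest difference, 3.36, followed by MAK16 with 3.02, NOP56 with 2.88 and NOP7 with 2.84. By class, 6 of 6 snoRNP genes, 2 of 5 small subunit, 3 of 4 shared and 9 of 16 large subunit genes were at least 2-fold higher. NOP14, outside these counts, was 1.74 higher. The array at 6 h divides this interval differently for different genes. RRP12, NOP56 and CBF5 had most of their difference by 6 h, with 2.15, 2.73 and 2.67, whereas NHP2, NSR1 and DBP2 had most of it between 6 and 8 h, with 1.97, 1.67 and 1.72. NOP15 was lower at 6 h than at 5 h and then 2.23 higher at 8 h. Each of these orders rests on the 6 h array.

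**Figure D4:**
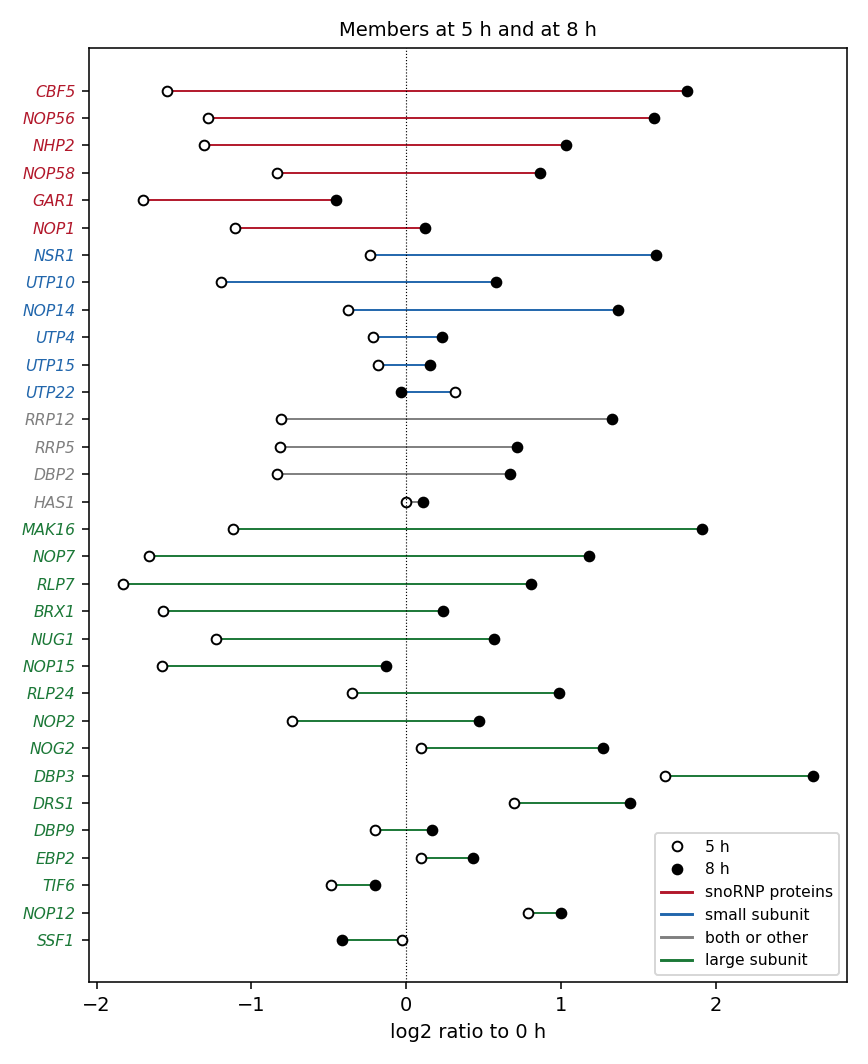
Log2 ratio to 0 h (horizontal axis) at 5 h (open circles) and 8 h (filled circles) for the 32 genes with both values, grouped by class. The 8 h value is the higher one in all genes drawn except SSF1 and UTP22; the longest line is that of CBF5.

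The small and large subunit pathways were set side by side. The large subunit median lay below the small subunit median from 1 to 6 h, by between 0.04 and 0.25, and above it by 0.46 at 8 h, where the medians were 0.69 and 0.23. The spread inside each class was wider than these gaps. At 8 h the large subunit genes ranged from -0.41 (SSF1) to 2.62 (DBP3) and the 5 small subunit genes from -0.03 (UTP22) to 1.61 (NSR1), so the classes overlapped. With 5 genes in the small subunit class, its median at 8 h is the value of 1 gene, UTP4. That median leaves out NOP14, which lacks its 6 h value and was at 1.37 at 8 h, so the gap at 8 h would be smaller with it. The snoRNP median was lower than that of the large subunit class by 0.36 to 0.87 from 1 to 5 h and higher by 0.34 and 0.26 at 6 and 8 h.

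**Figure D5:**
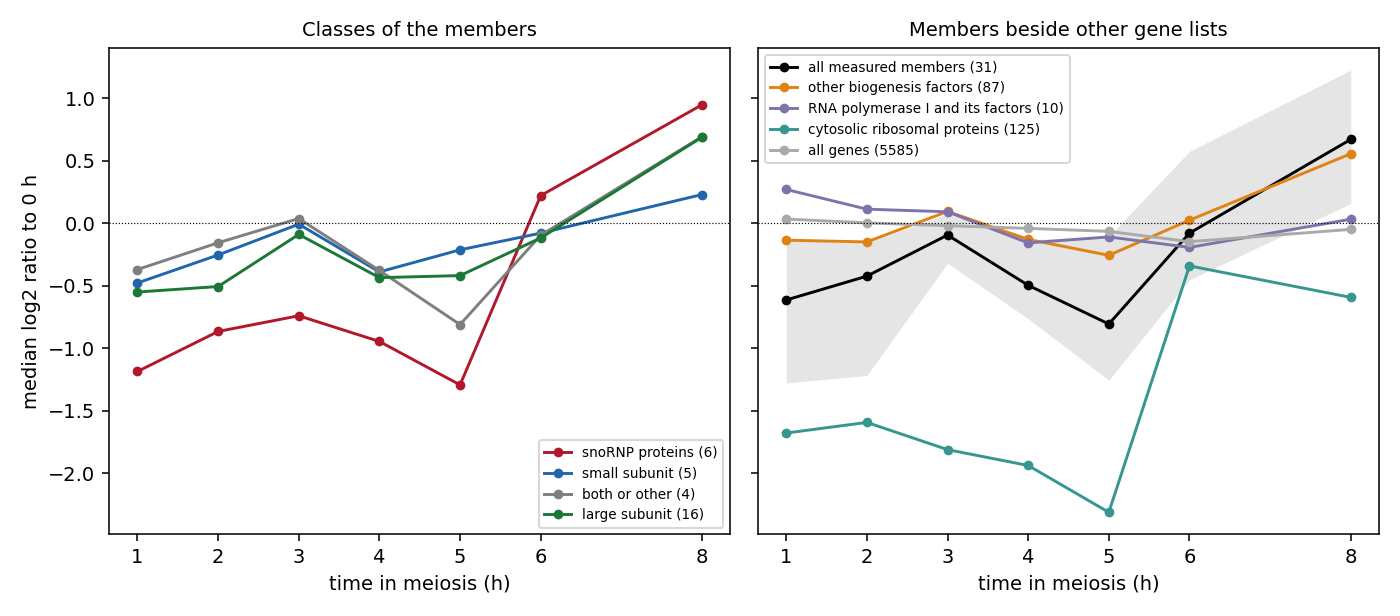
Median log2 ratio to 0 h (vertical axis) against time in meiosis in hours, left for the 4 classes of the 31 genes, right for all 31 (band from the lower to the upper quartile) beside 87 other biogenesis factors, 10 genes of RNA polymerase I and its initiation factors, 125 ribosomal protein genes and all 5585 genes; numbers of genes in brackets. The snoRNP class is lowest up to 5 h and highest at 8 h, and the ribosomal protein median is the lowest on the right at every time.

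Other genes of the pathway, listed by function but with earlier results of these data known, had a shallower form of the same course. Of 96 further assembly factors, 87 had values at all 7 times, 46 of the small and 41 of the large subunit pathway. Their medians in time order were -0.14, -0.15, 0.09, -0.13, -0.26, 0.02 and 0.56, and 35 of the 87 were at least 2-fold higher at 8 h than at 5 h, against 13.0% of all genes. In the slope test 1 of the 87 rose, against 1.34% of all genes, and none fell: PNO1, which acts in late small subunit maturation, went from -0.17 at 1 h to 2.32 at 8 h (limma adjusted p = 0.0496). None of the 87 passed without any 1 of the arrays from 1 to 6 h. Of the 87, CGR1, of the large subunit pathway, was highest at 8 h with 2.61, followed by PNO1 and by LTV1, a small subunit export factor, with 1.86. REA1, the ATPase that removes assembly factors, MRT4 and ESF1 were lowest at 8 h with -0.62, -0.53 and -0.51. The other small subunit factors had a median of 0.58 at 8 h and the other large subunit factors one of 0.46, so the order of the pathways at 8 h was opposite to that among the 31 genes.

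The median of the ribosomal protein genes was also lowest at 5 h and higher at 8 h, but at a lower level. The median of 125 of them was -2.31 at 5 h, -0.34 at 6 h and -0.59 at 8 h, so it was below 0 h at 8 h, when that of the assembly factors was above it. At 8 h 123 of the 125 were higher than at 5 h, against 46.5% of all genes, and 100 at least 2-fold higher, against 13.0%. The median difference was 1.75, against -0.07 over all genes. These times were chosen after seeing the data, from the median course of the ribosome biogenesis genes described first. The median of 10 genes of RNA polymerase I and its initiation factors stayed between -0.19 at 6 h and 0.27 at 1 h. None of the 10 passed the slope test (limma), in which 1.34% of all genes rose and 0.716% fell. At an unadjusted p under 0.05, 1 slope lay above 0 and 2 below, against 11.0% and 12.0% of all genes. With 10 genes, these counts do not set the list apart from all genes. RPA43 was highest at 8 h with 1.46, and RPA190, the largest subunit, lowest with -1.23. Single genes lay far from the median: at 6 h they ranged from -2.52 (RPA190) to 3.42 (RPA43).

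Among 9 measured regulators of ribosome genes none passed the slope test (limma, smallest adjusted p = 0.210), in which 1.34% of all genes rose and 0.716% fell. At an unadjusted p under 0.05, 1 slope lay above 0 and none below, against 11.0% and 12.0% of all genes. With 9 genes, these counts do not set the regulators apart from all genes. SCH9, a growth-promoting kinase, had the highest value at 8 h with 1.47, followed by STB3 and FHL1 with 0.34 and 0.32, and CRF1, RAP1 and ABF1 the lowest with -0.52, -0.47 and -0.22. The next 3 were singled out after their values were seen. DOT6, a repressor of ribosome biogenesis genes, was highest at 4 and 5 h (1.40 and 1.30) and back at -0.01 at 8 h. STB3, another such repressor, stayed above 0 h throughout, with a range from 0.34 to 1.35. SFP1, an activator, had log2 ratios of -1.03, -0.69, -0.01, -0.12, -1.01, -1.28 and -0.03. The remaining regulators were on both sides of 0 h at 5 h. SCH9 and FHL1 were then at 0.69 and 0.65, and CRF1, RAP1, ABF1 and IFH1 at -0.21, -0.36, -0.39 and -0.88. CRF1 was below 0 h at every time. Whether these levels have a part in those of the assembly factors was not tested.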

How the data were processed

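The authors deposited log2 ratios. Per the design text, the ratio of time point (Cy5) to meiotic mRNA mix (Cy3) was set against that at 0 h, and per the labels' protocols polyadenylated RNA was converted to aminoallyl-labelled cDNA. The platform, the normalization, the spot filters and the way 2 cultures enter 1 column were not given in the sources used here, and signal over background is unknown; the number of arrays limits the precision. Names came from the R64 reference table. Promoter motifs were not analysed here.

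Over the 5585 genes with 7 values, limma 3.58.1 in R 4.3.3 (lmFit, eBayes) fitted a line in hours (5 residual degrees of freedom) and a quadratic term; the Benjamini-Hochberg adjustment covered all 5585. Both fits were tested on simulated data with independent errors at each time. Samples of one course depend on each other, so the simulation does not show how the p-values behave here. Single times (n = 1) were described without a test. Alternatives were centred or quantile-normalized columns, robust eBayes, ranked times and arrays left out. Members, classes and lists were chosen with earlier results of these data known. All members are named; full courses are given for members past a threshold, for the highest, lowest and most deviating of each class, and for partners in a complex. Python 3.11.15 with pandas 2.3.3 and matplotlib 3.10.9 made the summaries and plots.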

Additional observations from a re-analysis of the deposited data

How the results depend on the processing

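The count of ribosome biogenesis genes that rose over time, 3, was 7 after quantile normalization and between 0 and 3 when arrays were left out; centring, robust eBayes and ranked times gave 3. Among the 87 further factors, 1 rose, 2 after quantile normalization, 2 with ranked times and between 0 and 1 with arrays left out; these alternatives were chosen after seeing the data. The fits without an array have fewer degrees of freedom. None of the 31 genes passed the curvature test or fell under any alternative run. The median at 6 h, -0.08, became 0.0683 with centred and 0.0071 with quantile-normalized columns; centring adds 0.15 at 6 h by construction. With quantile normalization the genes at least 2-fold above 0 h numbered 1 at 1 h (0 as deposited), 1 at 3 h (0) and 3 at 6 h (7), and those at least 2-fold below numbered 2 at 3 h (1), 8 at 5 h (12) and 1 at 6 h (2). With centring, 1 was above at 3 h, and 3 at 4 h (5) and 1 at 6 h (2) were below. The other medians and counts at single times moved by at most 1.5-fold and kept their sign, as did the differences between subunit classes and the difference between 5 and 8 h. The comparison of 5 and 8 h and its alternatives were chosen after seeing the data. No paired analysis was possible because each time has 1 array and the labels give no replicate numbers. Signal over background is unknown, so an unresponsive row cannot be told from a stable transcript.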
